A study of Mus musculus with 6 samples.

Results

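The 6 genes followed here are used by immature or stressed striated muscle, and were measured in dorsal skin of tight skin (TSK) and wild-type (WT) mice by bulk RNA sequencing. They were Myh3, Myh8, Myl4, Actc1, Tnnt2 and Ankrd1, 6 of the 55291 genes in the deposited tables. They were chosen by their values in TSK against WT in these same libraries, also relative to the titin gene Ttn. The differences below are therefore a description and carry no test. In TSK mice part of Fbn1, which encodes the microfibril protein fibrillin 1, is duplicated, here on a C57BL/6 background. Each group held 3 mice, with 1 library per mouse, and the WT mice were littermates of the TSK mice. The labels give an age of 6 to 8 weeks and the methods give 8 weeks. WT mice had the same labelled strain, age and tissue, and no treatment is named for either group. The labels give the sex as female and the methods give it as male. Ddx3y, a Y-linked gene, lay between 56.7 and 72.8 CPM (counts scaled to 1000000 per library) in all 6 libraries. Xist, made from the inactive X chromosome of females, lay between 2.57 and 4.58 CPM. Both go with male mice in all 6 libraries. Fbn1 lay between 262 and 289 CPM in WT and between 1538 and 2284 CPM in TSK.

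Muscle fibres build their contractile units, the sarcomeres, from proteins that exist in several isoforms. Embryonic and perinatal isoforms are made in developing fibres, are replaced by adult isoforms as fibres mature, and return for a time when adult muscle regenerates. Mouse dorsal skin includes a thin sheet of striated muscle, the panniculus carnosus, beneath the dermis. Myh3 and Myh8 encode the embryonic and the perinatal myosin heavy chain, the motor protein of the thick filament. Myl4 encodes an alkali myosin light chain of embryonic muscle and of the atrium. Actc1 encodes cardiac alpha-actin and Tnnt2 the cardiac form of troponin T, both also made by immature skeletal muscle. Ankrd1 is not an isoform of a sarcomere protein: it encodes a muscle ankyrin repeat protein that binds titin and is known to rise with stretch and injury.

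Libraries held 17561453 to 19219814 counts. Genes of the adult skeletal muscle list took 17.5%, 25.4% and 24.1% of the WT 1, 2 and 3 counts and 17.2%, 16.1% and 15.03% of the TSK 1, 2 and 3 counts. Striated muscle RNA was therefore abundant in every library. Markers of the heart were close to absent: 8 markers summed to 0.578 to 3.35 CPM in WT and 1.10 to 2.65 CPM in TSK, and 3 of them (Myl7, Nppa and Nkx2-5) had no count in any library. In bulk tissue, fewer muscle fibres of a type and less RNA per fibre cannot be told apart.

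All 6 genes were lower in the TSK libraries, and in none of them did the libraries of the groups overlap on deposited CPM. Over all 19971 tested genes, 2.58% were lower in TSK without overlap. The median log2 fold change of the 6 genes (TSK minus WT, edgeR) was -2.97, and that of all tested genes was -0.03. At an adjusted p below 0.05 all 6 were called lower, against 0.681% of all tested genes. With the thresholds of the study, an adjusted p below 0.01 and a fold above 2.5, edgeR called 2 of 6 (Myh3 and Myl4) against 0.0351% of genes, and DESeq2 called 6 of 6 against 0.318%. That edgeR count was 3 without WT 2 and 0 without any other 1 of the libraries, and limma-voom also gave 0. The study, which also used DESeq2, reported fewer genes higher in WT than the 65 called lower in TSK here. The DESeq2 counts given here are therefore not those of the study. The 6 genes were selected on this contrast, so nothing is read from these counts. At an adjusted p below 0.05 the count also rests on single libraries: Actc1 was not called without WT 2, WT 3 or TSK 3, and Tnnt2 was not called without WT 3, so that 4 of 6 remained called without WT 3.

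**Figure D1:**
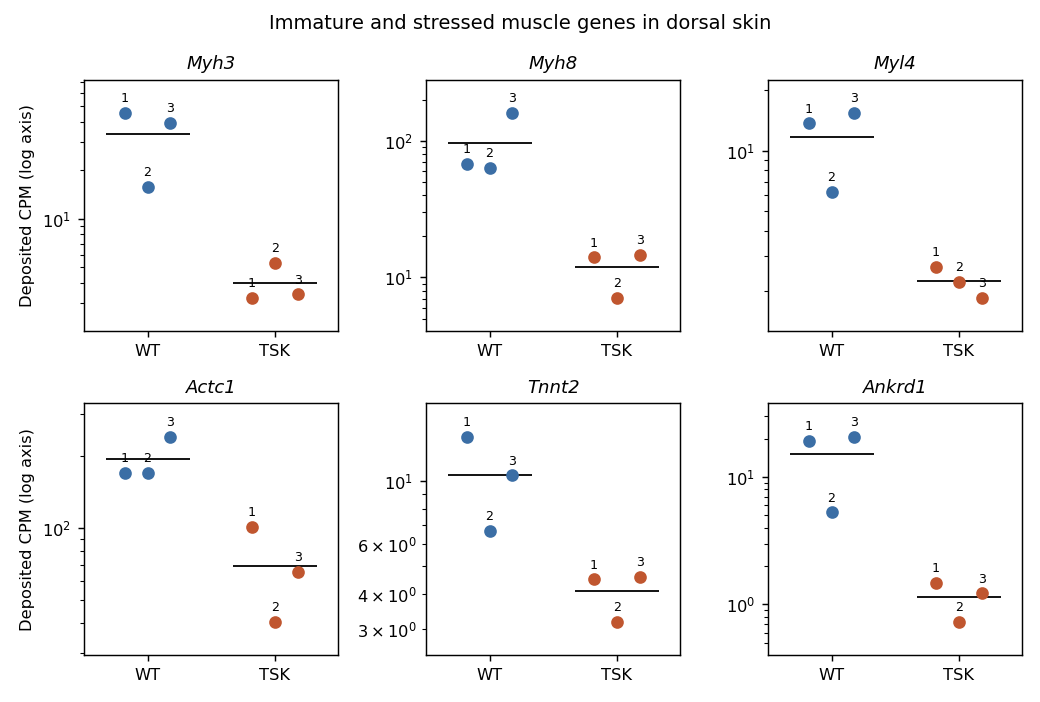
Deposited CPM (log axis) of each gene by group; each point is 1 mouse, numbered by replicate, and the bar is the arithmetic mean of 3. In every panel all TSK points lie below all WT points, and WT 2 is the lowest WT point.

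The myosin heavy chains came first. Myh3 lies on chromosome 11 (mm10, 67078300 to 67102291, plus strand), at the start of a cluster of sarcomeric myosin genes. It stood at 45.2, 15.7 and 39.0 CPM in the WT libraries (1, 2, 3) and at 3.23, 5.33 and 3.40 CPM in the TSK libraries. The lowest WT library was 2.95 times the highest TSK library. The mean was 33.3 ± 15.5 in WT and 3.99 ± 1.17 in TSK (SD, n = 3), with a log2 fold change of -3.30 (SE 0.35).

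Myh8 lies in the same cluster (chromosome 11, 67277124 to 67308634, plus strand). Its values were 67.3, 63.0 and 159.8 CPM in the WT libraries (1, 2, 3) and 13.99, 7.08 and 14.7 CPM in the TSK libraries. WT 3 was far above the other WT libraries, and TSK 2 was the lowest of all. The log2 fold change was -3.31 (SE 0.44), and -2.70 without WT 3. Along the chromosome the order of the cluster was Myh3, Myh2, Myh1, Myh4, Myh8 and Myh13, so the genes on either side of Myh8 were Myh4 and Myh13.

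The sequences before the starts of both genes are printed because the genes share a cluster and were both lower in every TSK library than in any WT library. Each window runs from 250 bases before to 50 bases after the RefSeq start (GRCm38.p6). Capitals mark matches on either strand to TATAAA, to CATTCC (the MCAT element bound by TEAD factors), to a CArG box (the element of serum response factor) or to a MEF2 site.
Myh3, chr11:67078050-67078349, plus strand: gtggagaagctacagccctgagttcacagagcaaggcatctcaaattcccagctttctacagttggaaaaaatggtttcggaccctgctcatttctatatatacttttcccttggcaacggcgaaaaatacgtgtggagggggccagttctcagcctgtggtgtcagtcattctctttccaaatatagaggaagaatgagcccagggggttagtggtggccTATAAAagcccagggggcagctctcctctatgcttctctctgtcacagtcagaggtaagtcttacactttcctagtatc
Myh8, chr11:67276874-67277173, plus strand: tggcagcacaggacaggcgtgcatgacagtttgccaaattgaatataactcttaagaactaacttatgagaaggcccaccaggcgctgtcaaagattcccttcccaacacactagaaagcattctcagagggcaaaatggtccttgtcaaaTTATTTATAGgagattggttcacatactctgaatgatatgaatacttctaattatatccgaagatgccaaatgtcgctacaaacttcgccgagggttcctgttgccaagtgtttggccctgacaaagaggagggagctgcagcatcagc
Myh3 held TATAAA at position -29 from the start. Myh8 held a MEF2 site at -99, which overlapped a TATAAA match at -96 on the other strand. Of 32851 windows of this length, 13.6% held TATAAA and 3.19% a MEF2 site. The E-box CANNTG, read by myogenic basic helix-loop-helix factors, was in 72.3% of all windows and in those of 5 of the 6 genes, and is not marked.

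Reads of 50 bases cannot always separate these paralogs. Of the 50-base words in the longest Myh8 transcript, 21.4% occur unchanged in another sarcomeric myosin gene, and 45.6% do so within 2 mismatches. For Myh3 these shares were 4.81% and 19.0%. Reads of Myh8 and of these paralogs could be split between them in counting, so the level of Myh8 is uncertain. The remaining genes shared no 50-base word exactly, and within 2 mismatches only Actc1 did (5.76% of words, with Acta1 and Actg2).

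Relative to the other sarcomeric myosins, both genes formed a very small share. Per kilobase of the longest coding transcript, Myh3 made up 0.137%, 0.0331% and 0.0906% of sarcomeric myosin heavy chain CPM in the WT libraries (1, 2, 3) and 0.0103%, 0.0190% and 0.0124% in the TSK libraries. Myh8 made up 0.2313% ± 0.1198 in WT and 0.0403% ± 0.0143 in TSK (SD, n = 3). In neither gene did the shares of the groups overlap. Myh4, the fast IIB myosin, made up 86.7% ± 3.20 in WT and 70.5% ± 4.23 in TSK, while Myh1 and Myh2, the IIX and IIA myosins, made up 11.3% and 1.31% in WT and 22.0% and 5.67% in TSK.

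**Figure D2:**
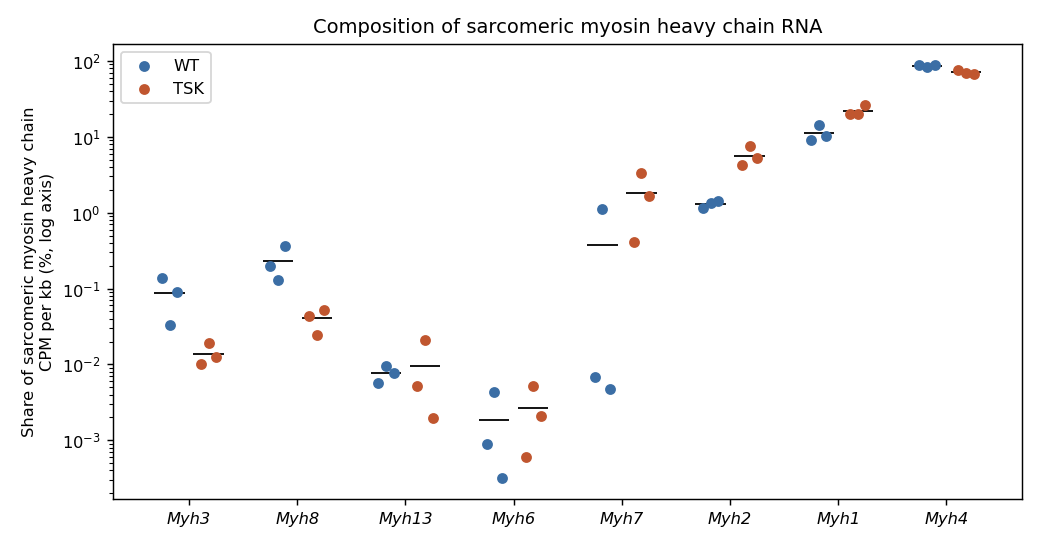
Share of each gene in the summed CPM per kilobase of 8 sarcomeric myosin heavy chains (percent, log axis); points are mice and bars are means of 3. Myh3 and Myh8 are lower in every TSK mouse, and the WT point for Myh7 near 1% is WT 2.

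By level, 0 of the 6 other sarcomeric myosins tested (Myh1, Myh2, Myh4, Myh7, Myh7b and Myh13) passed edgeR's adjusted p below 0.05. At an unadjusted p below 0.05, 1 was lower (Myh4) and 1 higher (Myh2). The edgeR log2 fold change was 1.26 for Myh2 (SE 0.31, adjusted p = 0.067) and -1.09 for Myh4 (SE 0.41, adjusted p = 0.18). In edgeR, Myh2 was called with a replicate block or with library size only, Myh2 and Myh4 were called without WT 1 or without the low-count filter, and Myh7 was called higher without WT 2. DESeq2 called Myh2 and Myh4 at an adjusted p below 0.05, where it called 2.01% of genes lower and 5.56% higher. Myh7, the slow myosin, stood at 2.35, 541 and 2.12 CPM in the WT libraries (1, 2, 3) and at 135, 980 and 470 CPM in the TSK libraries. WT 2 thus stood apart from the other WT libraries in slow myosin, and on deposited CPM it was also the lowest WT library for all 6 genes, though by little for Actc1 (170.0 against 170.2 in WT 1). On TMM-scaled CPM, WT 1 was the lowest for Myh8 (65.8 against 76.7 in WT 2) and for Actc1 (166 against 207). Whether the makeup of fibre types had a part in the values of the 6 genes was not tested.

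Myl4 lies on chromosome 11 (104550663 to 104595753, plus strand), outside the myosin heavy chain cluster. It stood at 13.7, 6.23 and 15.4 CPM in the WT libraries (1, 2, 3) and at 2.64, 2.24 and 1.86 CPM in the TSK libraries. The TSK libraries were close to each other, and the WT libraries spread 2.47-fold. The log2 fold change was -2.64 (SE 0.32). The gene overlaps 4 genes on the opposite strand, none with more than 1 count in a library. Per kilobase Myl4 made up 0.351% ± 0.186 of the alkali light chains of striated muscle in WT and 0.0937% ± 0.0138 in TSK, where Myl1, the fast adult form, made up 99.3% and 98.1%.

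Actc1 was the most abundant of the 6 genes per kilobase, at 131 ± 27.6 CPM per kb in WT and 46.8 ± 20.7 in TSK. It lies on chromosome 2 (114047282 to 114053548, minus strand). Its values were 170.2, 170.0 and 240.6 CPM in the WT libraries (1, 2, 3) and 101, 40.5 and 65.3 CPM in the TSK libraries. TSK 1 came nearest to WT, and the lowest WT library was 1.68 times TSK 1. The log2 fold change was -1.77 (SE 0.34). Of the summed CPM per kilobase of Actc1 and Acta1, the adult skeletal actin, Actc1 was 1.19% ± 0.239 in WT and 0.5299% ± 0.209 in TSK. A noncoding gene on the opposite strand spans the whole of Actc1 and had at most 6.00 counts in a library.

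The window at the Actc1 start is printed because among the 6 genes a CArG box was found there alone.
Actc1, chr2:114052826-114053125, minus strand: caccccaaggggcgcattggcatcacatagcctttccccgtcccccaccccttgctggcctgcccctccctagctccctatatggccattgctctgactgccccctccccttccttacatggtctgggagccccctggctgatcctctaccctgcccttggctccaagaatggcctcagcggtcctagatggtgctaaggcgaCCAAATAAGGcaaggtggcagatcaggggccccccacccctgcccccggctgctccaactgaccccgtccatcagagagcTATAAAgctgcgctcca
The CArG box lies at -47 and TATAAA at 33 from the RefSeq start. A CArG box was found in 1.63% of all windows.

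Tnnt2 lies on chromosome 1 (135836354 to 135852260, plus strand). It stood at 14.4, 6.66 and 10.5 CPM in the WT libraries (1, 2, 3) and at 4.49, 3.18 and 4.58 CPM in the TSK libraries. WT 2 was 1.45 times the highest TSK library, the smallest gap of the 6 genes. The log2 fold change was -1.61 (SE 0.25). Per kilobase Tnnt2 was 3.22% ± 1.92 of troponin T in WT and 1.29% ± 0.488 in TSK. Those shares overlapped, with 1.45% in WT 2 and 1.77% in TSK 1. The slow form Tnnt1 was 24.4% of troponin T in WT 2, against 4.30% and 5.35% in WT 1 and WT 3.

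Ankrd1 lies on chromosome 19 (36111961 to 36120099, minus strand). It stood at 19.2, 5.27 and 20.7 CPM in the WT libraries (1, 2, 3) and at 1.48, 0.732 and 1.22 CPM in the TSK libraries. In counts the TSK libraries held 27.0, 14.1 and 23.0. The log2 fold change of -3.96 (SE 0.51) was the third lowest of all tested genes. The highest WT library was 3.93 times WT 2, which was still 3.55 times the highest TSK library. Its relatives Ankrd2 and Ankrd23, which also bind titin, had log2 fold changes of 0.73 (SE 0.32, edgeR adjusted p = 0.257) and -0.4959 (SE 0.27, adjusted p = 0.355). Per kilobase Ankrd1 was 3.06% ± 2.03 of the 3 ankyrin repeat genes in WT and 0.232% ± 0.0862 in TSK.

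The Ankrd1 window is printed because it held 2 matches to CATTCC.
Ankrd1, chr19:36119795-36120094, minus strand: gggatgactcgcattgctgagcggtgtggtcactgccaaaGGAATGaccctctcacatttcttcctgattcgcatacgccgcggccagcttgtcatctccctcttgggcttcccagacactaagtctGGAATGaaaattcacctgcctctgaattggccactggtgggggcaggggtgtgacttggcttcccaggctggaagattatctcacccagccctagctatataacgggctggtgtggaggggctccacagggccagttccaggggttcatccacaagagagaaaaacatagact
The matches start at -210 and -123 and are read as GGAATG on the printed strand. CATTCC was in 14.7% of all windows, and among the 6 genes Tnnt2 also held it. Of the YAP target list, genes that YAP and TEAD are known to act on, 0 of 6 were lower and 2 were higher in TSK by edgeR, against 2.71% of all tested genes. These were Amotl2 (log2 fold change 0.78, SE 0.11, adjusted p = 0.0148) and Axl (1.21, SE 0.19, adjusted p = 0.0187); without WT 3 neither was called, and without WT 2 Axl was not. The Myl4 window held none of the marked motifs, and the first Tnnt2 window held CATTCC at -27.

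Because the muscle share of the libraries differed, the 6 genes were also expressed relative to Ttn, the titin gene, which is made by all striated muscle fibres. For Ttn itself edgeR gave -0.74 on the log2 scale (SE 0.53, adjusted p = 0.486). Per 10000 Ttn counts, Myh3 was 5.32, 1.29 and 3.37 in the WT libraries and 0.391, 0.662 and 0.454 in the TSK libraries. Myh8 was 7.93, 5.19 and 13.8 in WT and 1.68, 0.883 and 1.97 in TSK. Both stayed without overlap between the groups.

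On the same scale Myl4 was 1.61, 0.513 and 1.33 in the WT libraries and 0.318, 0.279 and 0.248 in the TSK libraries. Ankrd1 was 2.26, 0.434 and 1.79 in WT and 0.179, 0.0909 and 0.163 in TSK. Actc1 was 20.1, 14 and 20.7 in WT and 12.2, 5.05 and 8.73 in TSK, so that WT 2 was only 1.15 times TSK 1. Tnnt2 overlapped: WT 2, at 0.548, lay below TSK 3, at 0.6099, and the other WT values were 1.69 and 0.905.

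Relative to Ttn, 5 of 6 genes were thus lower in TSK without overlap, where 0.416% of all tested genes were. The choice of the 6 genes also used this ratio, so nothing is read from that count. Most tested genes shifted upward on this scale (median below), which keeps the share over all genes small. Geometric means were lower in TSK by 1.85-fold (Tnnt2) to 8.52-fold (Ankrd1). Without WT 2 the log2 difference of Ankrd1 went from -3.09 to -3.83, and that of Myh3 from -2.53 to -3.10. The median log2 difference was -2.20 for the 6 genes and 0.67 for all tested genes. With Acta1, Ckm, Neb or the summed adult muscle list in place of Ttn, 5 of 6 genes again did not overlap. Without WT 2 or without TSK 3 none of the 6 overlapped.

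**Figure D3:**
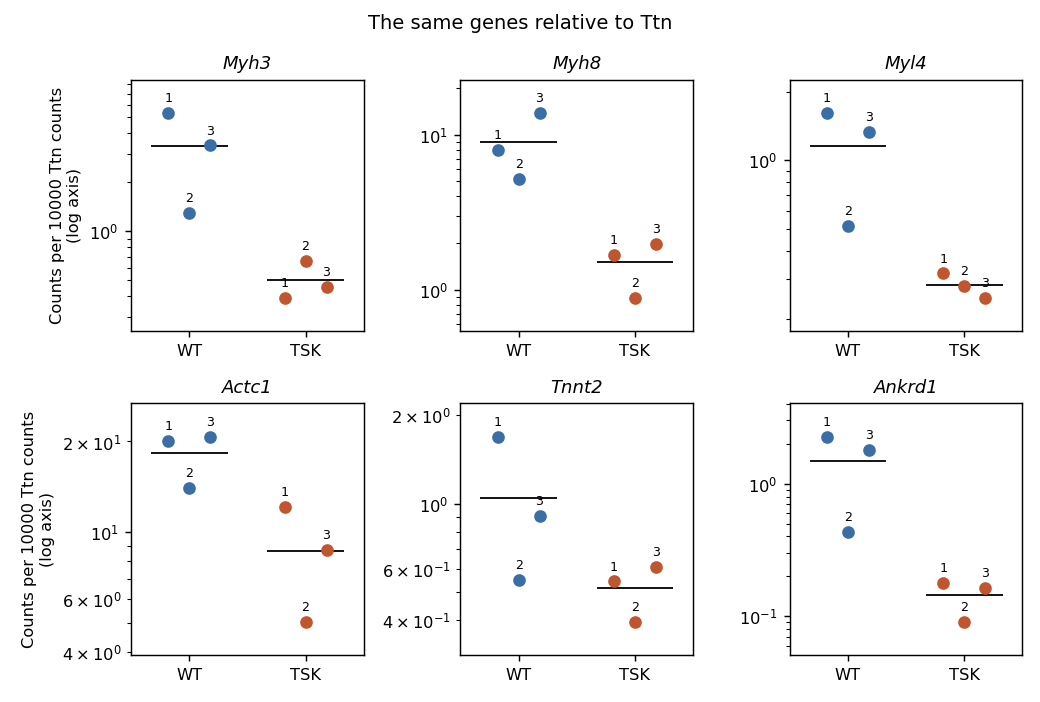
Counts of each gene per 10000 counts of Ttn in the same library (log axis); each point is 1 mouse, numbered by replicate, and the bar is the arithmetic mean of 3. The groups overlap for Tnnt2, where WT 2 lies below TSK 3, and for no other gene.

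Of the 17 genes of the adult skeletal muscle list, 15 had a negative log2 fold change, with a median of -0.80, and 0 were called by edgeR at an adjusted p below 0.05. At an unadjusted p below 0.05, 11 were lower and 1 higher. DESeq2 called 14 lower and 1 higher, against 2.01% lower and 5.56% higher over all genes it tested. Without the low-count filter edgeR called 4 lower and 1 higher (Myh2), where it called 347 of 34809 genes lower and 1040 higher. With library size only or a replicate block it called Myh2 alone, as higher. Without WT 1 edgeR called 11 lower and 1 higher, in a fit that called 547 of 20546 genes lower where the fit of all libraries called 136 of 19971. Among the 5 adult or slow counterparts of the 6 genes (Acta1, Myl1, Myl3, Tnnt1 and Tnnt3), edgeR called 0, with 2 lower at an unadjusted p below 0.05, and DESeq2 called 2 lower, Myl1 and Tnnt3. Without WT 1 edgeR also called those 2 lower, and without WT 2 it called 1 higher, the slow Myl3. For Acta1 the log2 fold change was -0.66 (SE 0.36) and for Myl1 it was -0.92 (SE 0.2957).

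Genes of myoblasts and immature fibres were examined next. This list was written with earlier results of these data known, so its counts and p-values are a description. Of 12 tested genes of this list, 8 fell and 0 rose in TSK at an edgeR adjusted p below 0.05, against 0.681% lower and 2.71% higher over all tested genes. Chrng, the fetal acetylcholine receptor subunit, fell by 3.78 on the log2 scale (SE 0.72, adjusted p = 0.0299), from 4.27, 0.905 and 3.85 CPM in WT to 0.5500, 0.104 and 0.106 CPM in TSK. Its level was low, with at most 75 counts in a library. It was not called by limma-voom or without WT 3, TSK 2 or TSK 3. Myog, the transcription factor myogenin that drives terminal differentiation, stood at 21.2, 11.8 and 21.1 CPM in the WT libraries (1, 2, 3) and at 6.66, 5.41 and 4.98 CPM in the TSK libraries (log2 fold change -1.92, SE 0.22, adjusted p = 0.00847). On deposited CPM, WT 2 was the lowest WT library for both.

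Mymk, which encodes the fusion protein myomaker, fell by 1.91 (SE 0.39, adjusted p = 0.0374). The other calls were Chrnd, Cdh15, Chrna1, Myf6 and Nes, with log2 fold changes of -1.55 to -0.84. That range overlaps the adult skeletal muscle list, which had a median of -0.80 and Myh4 at -1.09. Genes of the myogenic list were not set relative to Ttn. Whether they fell beyond muscle RNA as a whole was not tested. Pax7 and Myf5, which mark satellite cells, did not pass the test (log2 fold changes -0.605, SE 0.27, and -0.92, SE 0.54), nor did Myod1 (-0.91, SE 0.2453, adjusted p = 0.0828) or Ncam1. The count of 8 fell to 5 without WT 2, to 1 (Myog) without WT 3, to 3 without TSK 2 and to 4 without TSK 3. Mymx, with at most 25 counts in a library, was too low to be tested in the reported edgeR fit. Mymx was called lower by edgeR without the low-count filter and by DESeq2 with independent filtering at 0.1. It was not called by DESeq2 as otherwise run, nor in any edgeR fit that left out a library.

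Of 8 muscle genes known to respond to stretch or repair, 1 fell and 0 rose by edgeR, with 4 lower and 0 higher at an unadjusted p below 0.05. DESeq2, and edgeR without WT 1, each called 4 lower (Xirp1, Xirp2, Flnc and Mustn1). Ankrd2 was called higher with library size only, with limma-trend and with a replicate block. Mustn1 stood at 74.8, 51.8 and 67.7 CPM in the WT libraries (1, 2, 3) and at 31.4, 26.7 and 32.6 CPM in the TSK libraries (log2 fold change -1.37, SE 0.14, edgeR adjusted p = 0.00536). It was called whichever library was left out. Csrp3 and Ankrd2, both also known in slow fibres, had log2 fold changes of 0.58 (SE 0.28, adjusted p = 0.285) and 0.73. Ankrd1 was thus the lowest of the stretch-responsive genes measured here, a ranking that its selection fixes.

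**Figure D4:**
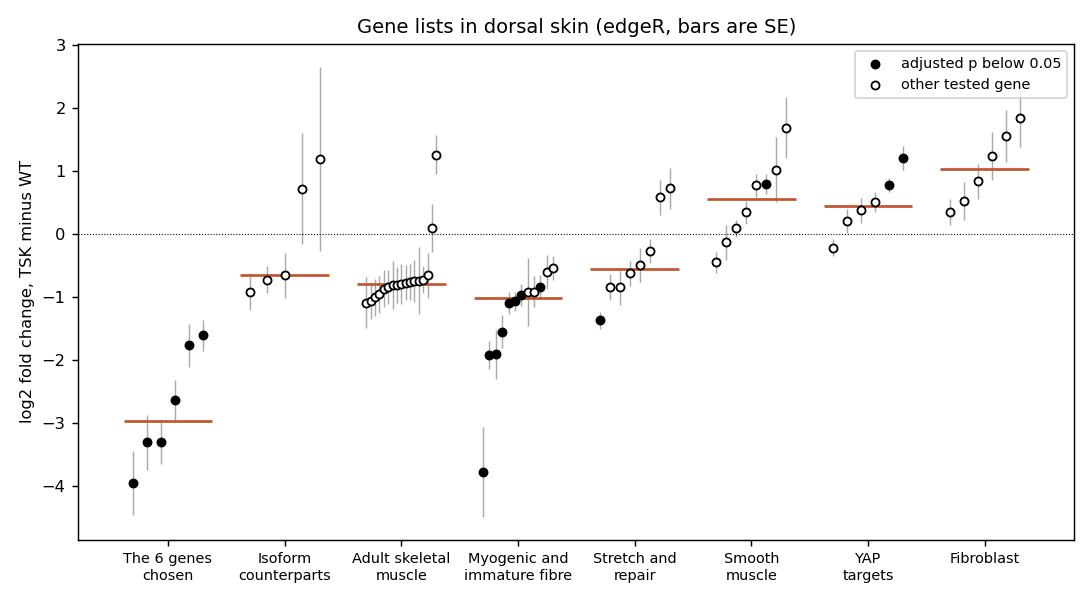
log2 fold change (TSK minus WT, edgeR) of every tested gene in 8 lists, with SE bars; filled points have an adjusted p below 0.05 and orange lines are list medians. The 6 genes chosen on this contrast have a median of -2.97, the adult skeletal muscle list one of -0.80 and the myogenic list one of -1.02.

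Markers of other cell types of skin were also examined. Fibroblast markers summed to 6324 to 9624 CPM in WT and 20323 to 47280 CPM in TSK, with 0 of 6 called by edgeR, 4 higher at an unadjusted p below 0.05 and 4 called higher by DESeq2. In edgeR 3 were called higher without the low-count filter and 5 with library size only, and limma-trend also called 5. Adipocyte markers summed to 92.0 to 125 CPM in WT and 290 to 1844 CPM in TSK, with TSK 2 the highest and 2 of 5 called higher by edgeR. That count was 1 without WT 1, 0 without WT 2, without WT 3 or with limma-voom, 4 without any 1 of the TSK libraries and with DESeq2, and 5 with library size only. Smooth muscle markers, which include other actin and myosin genes, had 1 of 8 called, Myh11 (log2 fold change 0.79, SE 0.16, adjusted p = 0.0366), which was not called without WT 2, WT 3 or any 1 of the TSK libraries. The count was 3 with DESeq2, without the low-count filter or with a replicate block, and 4 with library size only or limma-trend. Keratinocyte markers overlapped in their sums (3739 to 7212 CPM in WT and 4093 to 6899 CPM in TSK), with 1 of 6 called higher, Lor, and 0 without WT 3. The part of these cell types in the values of the 6 genes was not tested.

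Across all libraries the log2 level of each of the 6 genes correlated with the mean of the others with r from 0.92 (Actc1) to 0.99 (Ankrd1) over the 6 libraries, a description that the difference between groups largely sets. Within groups the genes did not all move together. On the TMM log2 scale all 6 lay below the WT mean in WT 2, from -1.13 log2 units (Ankrd1) to -0.026 (Actc1). In WT 1, Myh8 and Actc1 lay below that mean (-0.56 and -0.34) while Myh3 and Ankrd1 each lay 0.40 above it. In TSK 2, Myh8 and Actc1 deviated from the TSK mean by -0.69 each and Myh3 by 0.42 in the other direction. Of 12011 genes with a mean of at least 5 CPM, the 10 most like the mean profile of the 6 genes were Ppig, A330044P14Rik, Mustn1, Myog, Dnajc5, BC023105, Ptpn2, 6720427I07Rik, Gm47628 and Zfp622, with r from 0.98 to 0.995 over 6 libraries. A high r with so few libraries took in genes with small differences, such as Ppig, with a log2 fold change of -0.29 (SE 0.11), and 73 genes had an r above 0.95.

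The 6 genes were lower in TSK under each of the 15 alternative settings run, where the highest log2 fold change of any of the 6 genes was -1.13 (Tnnt2, limma-trend on deposited CPM with 1 added). Ankrd1 ranged most, from -4.33 without WT 2 to -2.72 in that limma fit, where the added 1 is close to its level in TSK.

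**Figure D5:**
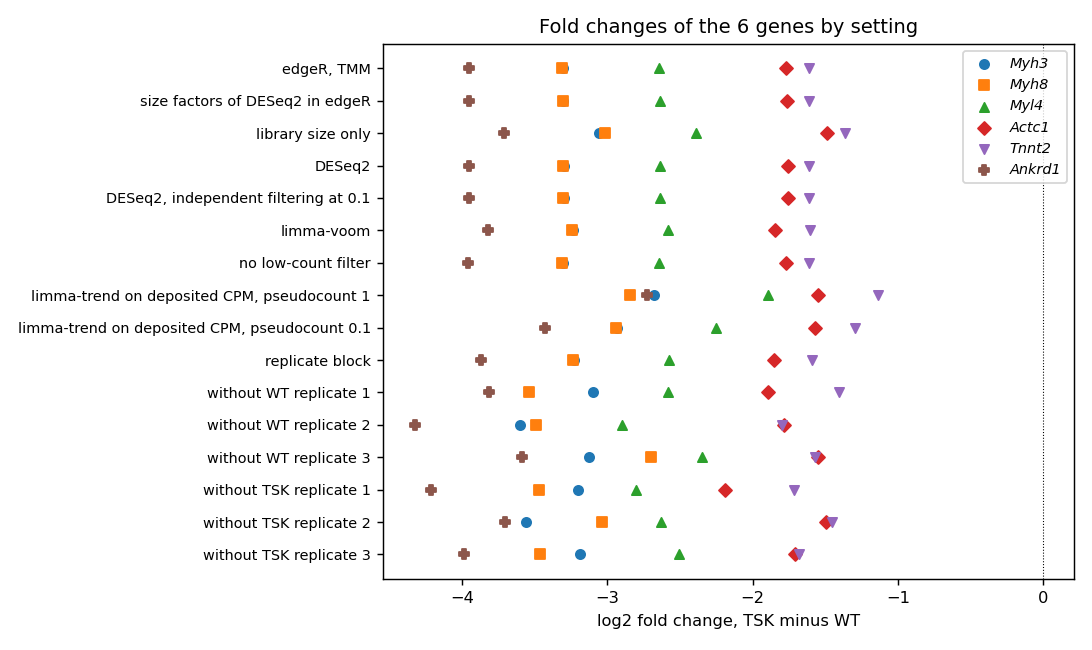
log2 fold change (TSK minus WT) of each of the 6 genes under the reported fit (edgeR, TMM) and each alternative. All points lie below 0, between -4.33 and -1.13.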

How the data were processed

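RNA from shaved dorsal skin of 3 TSK and 3 WT mice was sequenced by the authors as stranded, ribosomal RNA-depleted, single-end reads of 50 bases. Reads were aligned with STAR to mm10 and quantified in Partek Flow 11.0. The authors deposited estimated counts per gene, named as raw though many are not whole, and CPM, scaled to 1000000 per library. Counts of 1000000 or more (Ttn) carry 3 significant digits.

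Estimated counts were rounded and tested with edgeR 4.0.16 (quasi-likelihood, TMM, filterByExpr, Benjamini-Hochberg; R 4.3.3), the test having been planned for counts. Per-library ratios to Ttn had 0.5 added to both counts for log2 differences. DESeq2 1.42.0 and limma 3.58.1 were alternatives. Independent filtering in DESeq2 was set at 0.05. A run at its default of 0.1 was tried after that count had been seen, with the result of an earlier analysis in view, and is given only as an alternative.

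The 6 genes and all lists were chosen with earlier results of these data known. Named genes are the 6, Ttn, Fbn1, Ddx3y, Xist, list genes, cluster neighbours and the 10 most alike. Coordinates are from GENCODE M21, promoter windows from RefSeq (GRCm38.p6). The edgeR script was tested on simulated data. Same-numbered libraries did not deviate together (correlations 0.0112, 0.167 and -0.0938), and no pair within a group agreed within sampling noise (lowest chi-square per degree of freedom 8.02). P-values measure the spread between mice.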

Additional observations from a re-analysis of the deposited data

How the results depend on the processing

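Each group held 3 mice, and the calls depended on the tool and on single libraries more than the fold changes did. At an adjusted p below 0.05, 136 genes were lower in TSK, which became 411 with DESeq2, 406 with DESeq2 filtered at 0.1 and 347 without the low-count filter. It was 15 to 547 when 1 library was left out, lowest without WT 3 and highest without WT 1. The number higher was 542 and became 1685 with library size only, 1136 with DESeq2, 1129 with DESeq2 filtered at 0.1, 1040 without the filter, 1771 and 1761 with limma-trend on deposited CPM (1 and 0.1 added), and 45 to 713 when 1 library was left out. At the thresholds of the study, 7 genes were lower; this became 15 with library size only, 65 with DESeq2, 68 with DESeq2 filtered at 0.1, 1 with limma-voom, 61 without the filter, 14 and 15 with limma-trend, and 0 to 7 when 1 library was left out. DESeq2 filtered at 0.1 was added after the data were seen. With library size only, the median over all genes shifted by 0.28 (log2) and the share of calls that were lower went from 20.1% to 5.23%. Leaving out WT 1 moved that share to 43.4%. The cause of these changes was not tested.

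Libraries with the same replicate number did not deviate together, which with 3 mice per group cannot exclude a pairing. With a replicate block, 15 genes were lower at the thresholds of the study, of which 5 were among the 6 genes, and all 6 were called at an adjusted p below 0.05, as without it. At the thresholds of the study the number of the 6 genes called was 2 in the reported fit, 0 with limma-voom, 3 to 6 under the other alternatives that kept all libraries, 3 without WT 2 and 0 without any other 1 of the libraries. All 6 were called under every alternative that kept all libraries; leaving out 1 library gave 4 to 6. Their median log2 fold change was -2.29 with limma-trend (1 added) and -3.19 to -2.52 when 1 library was left out, and the median relative to Ttn was -2.62 to -1.81. Of 156 values of single genes under alternatives, 0 changed direction and 4 moved by more than the spread between mice, all in the limma-trend fit with 1 added.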
